A study of Homo sapiens with 6 samples.

Results

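Very long genes are the human protein-coding genes that occupy more than 500 kb of genome from first to last base. The genes described here were chosen by annotated span alone and then by total count: autosomal protein-coding genes with a GENCODE v44 span over 500000 bp, without RUNX1, RAD51B and the collagen and laminin genes, and with more than 10 counts in total over 6 samples. Of 19111 autosomal protein-coding genes, 309 passed the span limit, 3 of these were left out by name, and 306 remained. Of the 306, 7 had no row in the count table and 36 had 10 counts or fewer, 3 of them 0 in every sample, which left 263 measured genes of 21729 tested. The span did not use the counts, but the count limit did, so the 263 are the very long genes with RNA in these cells and not every very long gene.

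The study profiled UWB1.289, a human ovarian cancer cell line deficient for BRCA1, with poly(A) RNA-seq after 24 h in 4 µM Olaparib or in the solvent DMSO, 3 samples each (the labels give the genotype as WT, and the series' design text gives 10 µM instead of 4 µM). All 6 samples come from this 1 line, so a BRCA1-proficient background was not part of the comparison. The study's methods describe the replicates of each condition as independent, while the labels give 3 dishes per condition without tying a dish to a sample, and p-values measure the spread between these samples. Olaparib inhibits PARP1 and PARP2, enzymes that attach ADP-ribose to proteins at DNA breaks, and holds them on the DNA. Cells without BRCA1 cannot repair the resulting lesions by homologous recombination.

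Total counts ran from 35360458 to 39640775 per sample, and no 2 samples of a group agreed within sampling noise. Of 12 ovarian carcinoma and epithelial marker genes, 10 were measured, with KRT7, KRT8, KRT18, KRT19, EPCAM and PAX8 among them, and the other 2 were low, WT1 at 10 counts or fewer and CD24 at 0. PAX8, a Müllerian lineage factor, had a log2 fold change of 0.10. Neuron and glia markers matter here because many very long genes serve neurons. Of 18, 9 had 10 counts or fewer, with GAP43 and OLIG2 at 0, and 1 had no row. The 3 averaging 100 counts or more were MBP, MAP2 and GAD1, at mean counts of 3122, 742.5 and 251. The list summed to 116 to 119 CPM (counts scaled to library size) in the Olaparib samples and 113 to 117 CPM in the DMSO samples. Leukocyte, endothelial and mesenchymal markers summed to 48.4 to 49.8 CPM in the Olaparib samples and 48.8 to 51.9 CPM in the DMSO samples. Of 15, 6 had 10 counts or fewer, with PECAM1 and LUM at 0. CDH5, an endothelial cadherin, was the 1 member averaging 100 counts or more, at a mean count of 1567. Of that list, only VWF, an endothelial marker, had an adjusted p under 0.05 in the test named below. It had 63.8, 69.7 and 68.6 normalized counts in the Olaparib samples against 39.7, 42.2 and 43.6 in the DMSO samples (log2 fold change 0.68). KDR, also endothelial, was higher in all 3 Olaparib samples (log2 fold change 0.30), while CDH5 was lower in all 3 (-0.075). The quasi-likelihood test of edgeR, adjusted by Benjamini-Hochberg over all 21729 genes and called edgeR adjusted p throughout, gave VWF 0.0106 and PAX8 0.0399, both higher after Olaparib. By the same test the adjusted p was 0.237 for KDR and 0.442 for CDH5. The part of these marker genes in the results on very long genes was not tested.

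Very long genes consist almost entirely of intron. RNA polymerase II needs hours to cross one, so their mature RNA depends on elongation that is not interrupted, and they are known for losing expression when topoisomerases or elongation kinases are blocked. Many encode synaptic adhesion proteins, scaffolds and channels of neurons. Several coincide with common fragile sites, regions that break when replication is slowed, because replication forks and transcription meet there and origins are sparse.

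Structurally, the 263 genes had a median span of 708 kb, against 33.1 kb for the 14437 other protein-coding genes tested. Their exons covered a median of 11299 bp in 28 separate blocks, against 5201 bp in 11 blocks, so that exons made up a median of 1.49% of the span, against 16.4%. The longest stretch without an exon had a median of 164 kb, against 9.45 kb. Reads were counted per gene, and levels are compared between genes only per exonic length.

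Most very long genes were expressed at a low level. Their median level was 0.889 TPM (a share of transcripts, here from counts divided by GENCODE v44 exonic length), against 14.0 TPM for the other protein-coding genes. A level over 1 TPM was reached by 128 of the 263 and one over 10 TPM by 43. An average of 100 counts or more per sample, the level used below for readable values, was reached by 135, and 84 had a mean count under 20. In 21, every sample of at least 1 group had 3 counts or fewer. Their fold changes are not described, except those of FSTL5 and GRM5 under the alternatives run. The 36 genes at 10 counts or fewer, some of them named here after their values were seen, had little RNA to measure. RBFOX1, a neuronal splicing factor and at 2473539 bp the longest of the 306, had 8 counts in total, CSMD1 had 4, PCDH15, a cadherin of sensory hair cells, had 8, and DCC, a netrin receptor, had 1. CNTNAP5, IQCM and ZNF804B had 0 in total, which still allows an expected total of up to about 3 counts over the 6 samples.

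**Figure D1:**
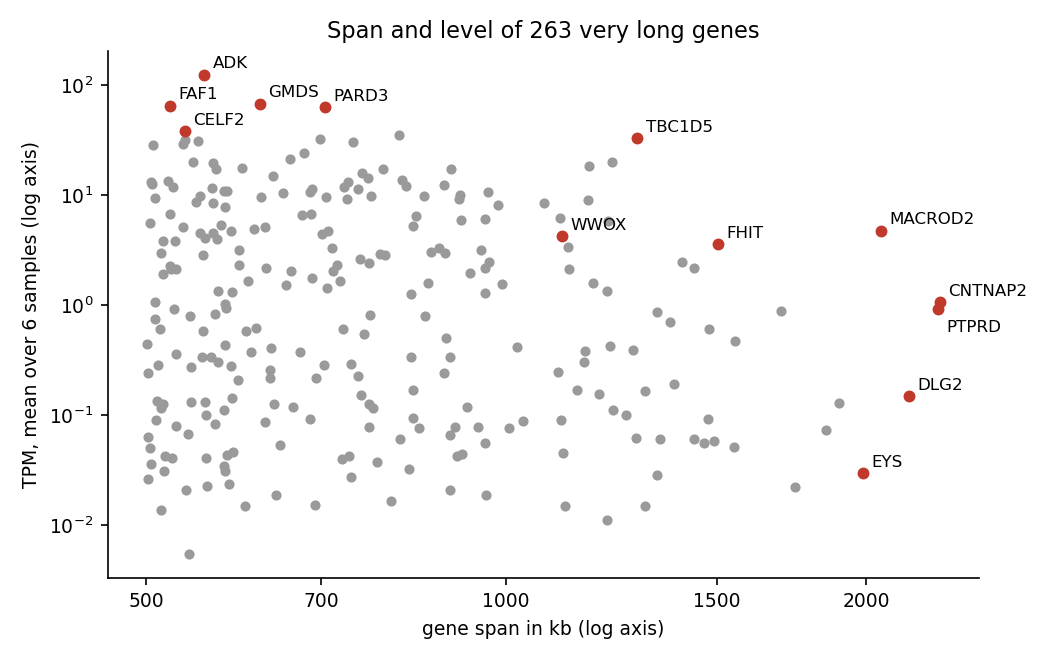
Gene span in kb (log axis) against level in TPM, the mean over 6 samples (log axis), for the 263 very long genes; named genes are in red. Levels run from 0.0055 TPM at MYT1L to 124 TPM at ADK, and the 5 longest genes lie at or below 4.74 TPM.

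The highest levels were held by housekeeping enzymes, signaling proteins and scaffolds rather than by neuronal genes. ADK, adenosine kinase, stood at 124 ± 3.13 TPM (mean ± SD, n = 6). GMDS, which starts GDP-fucose synthesis, followed at 67.7 ± 2.91 TPM, FAF1, a cofactor of the VCP segregase, at 64.8 ± 1.24 TPM, and PARD3, a core cell polarity protein, at 62.6 ± 0.830 TPM. These 3 neighbours in the order overlap or nearly overlap within their SDs, whereas ADK stands apart.

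The next 6 were CELF2, an RNA-binding splicing regulator, at 38.0 TPM, EXOC4, an exocyst subunit, at 35.2 TPM, TBC1D5, a Rab regulator of retromer traffic, at 32.8 TPM, CDKAL1, a tRNA-modifying enzyme, at 32.5 TPM, EGLN3, a prolyl hydroxylase of the hypoxia response, at 31.3 TPM, and PTPRK, a receptor tyrosine phosphatase, at 31.2 TPM. None of these 10 had an edgeR adjusted p under 0.05 between treatments. EGLN3 and CELF2 owe their span over 500 kb to alternative transcripts, since their canonical transcripts cover 26.8 kb and 318804 bp. TBC1D5 spans 1287656 bp, with a canonical transcript of 585464 bp.

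ADK itself measured 6049, 5767 and 5973 normalized counts in Olaparib replicates 1 to 3 and 5977, 5739 and 5968 in DMSO replicates 1 to 3. The sample ranges overlapped almost fully, with a log2 fold change of 0.0087 and a 95% interval of -0.054 to 0.071. EXOC4 measured 3614, 3496 and 3579.6 normalized counts in Olaparib replicates 1 to 3 and 3213, 3320.3 and 3323 in DMSO replicates 1 to 3, so that all 3 Olaparib samples lay above all 3 DMSO samples. Its log2 fold change was 0.12 (95% interval 0.046 to 0.19) with an edgeR adjusted p of 0.0694, and DESeq2's Wald test gave an adjusted p of 0.0464. GMDS, CDKAL1, EGLN3 and PTPRK had log2 fold changes of 0.11, 0.10, 0.10 and 0.12 with edgeR adjusted p of 0.146, 0.195, 0.169 and 0.0806.

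The 5 longest genes were CNTNAP2 at 2305 kb, PTPRD at 2299 kb, DLG2 at 2173 kb, MACROD2 at 2058 kb and EYS at 1987 kb. CNTNAP2, a neurexin-family adhesion protein, measured 205, 163 and 166 normalized counts in Olaparib replicates 1 to 3 and 179, 177 and 182 in DMSO replicates 1 to 3, with DMSO samples inside the Olaparib range. MACROD2, a hydrolase that removes mono-ADP-ribose from proteins and so works opposite to the enzymes Olaparib inhibits, measured 558, 530.3 and 552 normalized counts in Olaparib replicates 1 to 3 and 600.2, 534 and 558 in DMSO replicates 1 to 3. Its groups overlapped, with a log2 fold change of -0.045 (95% interval -0.15 to 0.063).

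PTPRD, a receptor tyrosine phosphatase of synaptic adhesion, measured 107, 114 and 158 normalized counts in Olaparib replicates 1 to 3 and 78.4, 103 and 92.0 in DMSO replicates 1 to 3. Every Olaparib sample was above every DMSO sample, and Olaparib replicate 3 was far above the other two. The log2 fold change was 0.47 with a 95% interval of 0.20 to 0.74 and an edgeR adjusted p of 0.0517, so PTPRD missed the threshold, although its estimate exceeded that of each gene that passed. Without Olaparib replicate 3 the log2 fold change of PTPRD was 0.28 (adjusted p 0.453), and without Olaparib replicate 1 it was 0.58 (adjusted p 0.0265), past the threshold. DLG2, a synaptic scaffold, measured 38.5, 39.0 and 48.7 normalized counts in Olaparib replicates 1 to 3 and 46.0, 41.2 and 45.5 in DMSO replicates 1 to 3, and EYS, a photoreceptor protein, stayed under 8 in each sample, and neither had groups that separated.

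The question of the comparison was which very long genes changed their RNA level under PARP inhibition. With an edgeR adjusted p under 0.05, 12 of the 263 were called, which is 4.56%. The share was 4.36% among the other protein-coding genes and 3.36% among all genes tested, so the share of very long genes called was close to the background. By DESeq2 the share was 3.77% (6 of the 159 with an adjusted p), against 4.09%, and by limma voom 3.04% (8 of 263), against 4.13%. Both lay below the background over genes of any level. These shares were not matched for level, and the median mean count was 110 for the very long genes and 828 for the others. The direction was uneven: 11 were higher after Olaparib (4.18%, background 3.05%) and 1 was lower (0.38%, background 1.32%). When a fold of more than 1.2 was also asked, 1 remained, TSHZ2 (0.38%, background 1.34%). Changes were thus small, with log2 fold changes between 0.15 and 0.27 for the 11 that rose.

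**Figure D2:**
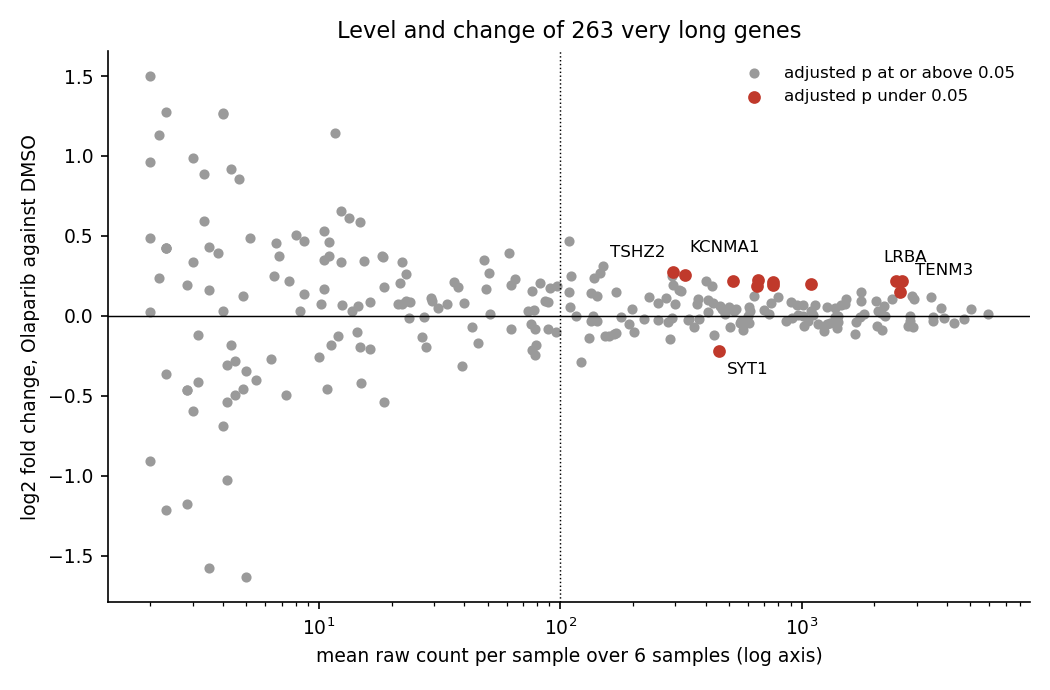
Mean raw count per sample over 6 samples (log axis) against the log2 fold change, Olaparib against DMSO, for the 263 very long genes; red points have an adjusted p under 0.05, and the dotted line marks a mean count of 100. All 12 red points lie to the right of the line, and scatter widens to its left.

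All 12 called genes averaged 100 counts or more. Among the 135 very long genes at that level, 8.15% were higher and 0.741% lower, against 3.8% and 1.62% of the 11050 other protein-coding genes at that level. Among the 128 below it, edgeR called 0, with 3 higher (2.34%) and 2 lower (1.56%) at an unadjusted p under 0.05. Over other protein-coding genes of any level, 4.36% were called, and 10.6% were higher and 7.39% lower at that unadjusted p. The median SE of the log2 fold change was 0.36 for the 128 and 0.053 for the 135. Changes of the size seen in abundant genes were thus not detectable in the 128, and the 0 is not read as a lack of change.

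Counted by separation rather than by test, 43 very long genes had all 3 Olaparib samples above all 3 DMSO samples (16.3%, background 12.8%), and 14 had all 3 below (5.32%, background 9.29%). A single gene's exact permutation test of 3 against 3 cannot go below 0.1. The median log2 fold change over the 263 was 0.048, against 0.0047 over the other protein-coding genes and -0.0042 over all genes tested, and 60.8% had a value above 0, against 52.1%. Without Olaparib replicate 1 the median over the 263 was 0.028. Over the 135 averaging 100 counts or more it was 0.029.

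The samples did not contribute equally. Relative to each gene's DMSO mean, the median over the 135 genes was 0.068 in Olaparib replicate 1, 0.017 in replicate 2 and 0.018 in replicate 3 on the log2 scale, while the 3 DMSO samples lay between -0.005 and 0.0023. The 11050 other protein-coding genes had sample medians between -0.0066 and 0.0087. Olaparib replicate 1 thus sat highest among the Olaparib samples, and it was also the highest sample for 6 of the 11 genes that rose. Among the DMSO samples, replicate 3 was the lowest for 6 of the 11.

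**Figure D3:**
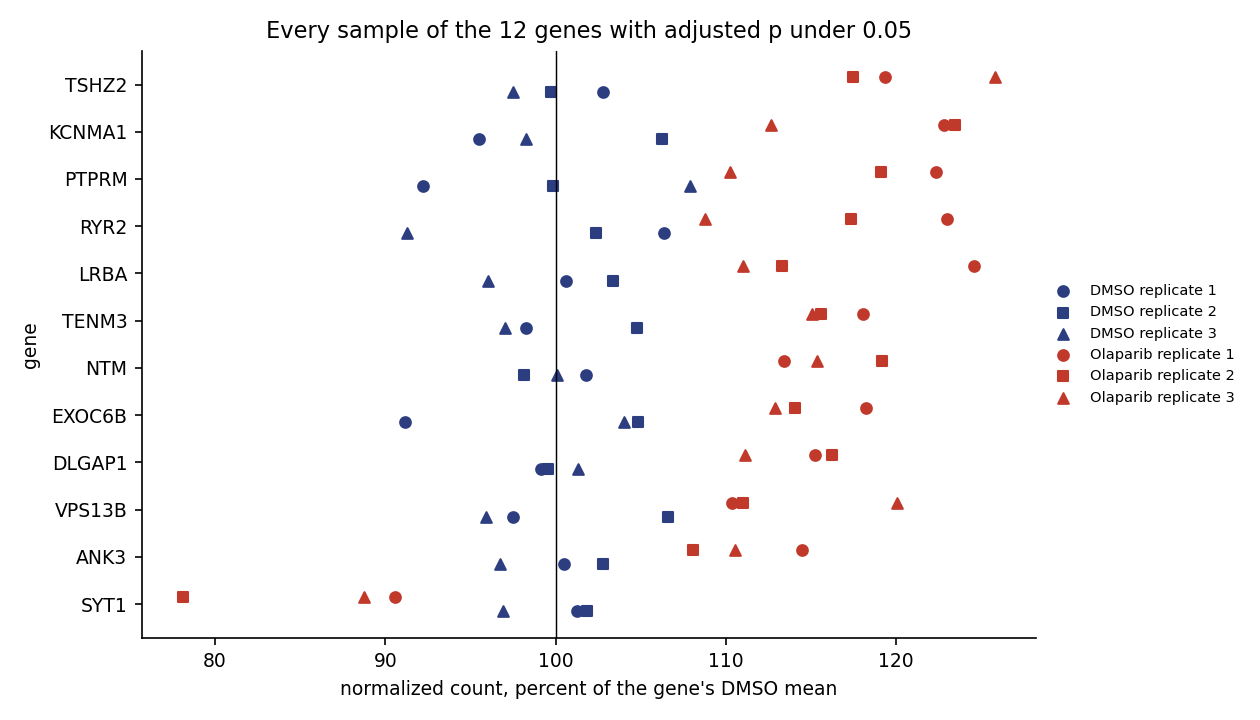
Normalized counts of the 12 very long genes with an adjusted p under 0.05, each as a percent of the gene's DMSO mean (vertical line at 100); red and blue are Olaparib and DMSO, and the marker gives the replicate. For 11 genes every red point lies right of every blue point, and for SYT1 every red point lies left.

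Promoter sequences from RefSeq (GRCh38.p14), the 250 bases before the annotated start, were matched for 224 of the 263 very long genes and for 10 of the 12 called. The GC box GGGCGG, searched on both strands like all motifs here, was in 50% of the very long genes' promoters and in 8 of the 10 called ones, against 42.3% of all 27305 promoters. The TATA box TATAAA was in 8.04% and in 0 of the called, against 11.1%. Median GC content was 63.6% in the very long genes' promoters and 67.6% in the 10 called ones, against 58.0% in all promoters. Whether the GC box shares go beyond these GC contents was not tested. In the very long genes' promoters, CCAAT was in 29.5% (33% of all) and GGAATG, the TEAD motif, in 10.3% (11.9%). TGANTCA, the AP-1 motif, was in 3.12% (6.6%), and CACGTG, the E-box, in 6.7% (6.49%). Of the 10 called, CCAAT was in 4, GGAATG in 1, and TGANTCA and CACGTG in 0.

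Shown are the promoters of both genes that kept their call whichever 1 sample was left out, and of the 1 gene called lower, 5′ to 3′ on the gene's strand, with the GC box in capitals (CCGCCC where it lies on the other strand): LRBA at chr4:151015728-151015977 on the minus strand, TENM3 at chr4:182143713-182143962 on the plus strand and SYT1 at chr12:78864524-78864773 on the plus strand.
LRBA: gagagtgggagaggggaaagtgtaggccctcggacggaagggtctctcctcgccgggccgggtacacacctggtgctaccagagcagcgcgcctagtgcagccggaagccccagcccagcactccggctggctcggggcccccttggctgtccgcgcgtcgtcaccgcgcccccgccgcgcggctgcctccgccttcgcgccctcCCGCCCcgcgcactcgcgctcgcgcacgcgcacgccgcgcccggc
TENM3: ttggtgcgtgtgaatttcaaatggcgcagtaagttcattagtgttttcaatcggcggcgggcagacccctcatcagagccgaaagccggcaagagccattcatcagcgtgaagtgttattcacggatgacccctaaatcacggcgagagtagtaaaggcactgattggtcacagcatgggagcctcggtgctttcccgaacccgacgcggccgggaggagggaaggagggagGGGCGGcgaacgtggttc
SYT1: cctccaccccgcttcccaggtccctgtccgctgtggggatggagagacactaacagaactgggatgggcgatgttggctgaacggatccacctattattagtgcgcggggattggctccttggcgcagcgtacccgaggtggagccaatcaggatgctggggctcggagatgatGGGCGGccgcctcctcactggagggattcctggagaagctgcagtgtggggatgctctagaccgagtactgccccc
Each holds 1 GC box, LRBA's at a GC content of 76.4%, SYT1's at 62.0% and TENM3's at 56.8%. The box is thus present in genes that moved in both directions, and a match is a description of letters and not of binding. The RefSeq start of TENM3 lies 99439 bp from the start of its canonical GENCODE transcript, so this stretch may belong to one of several starts.

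Adhesion genes formed the largest role list, and 2 of its 56 measured members rose, with 0 lower. As with the other lists, this is read beside the 3.05% of other protein-coding genes called higher and the 1.32% called lower. TENM3 (chromosome 4, 182143987 to 182803024), teneurin-3, a transmembrane adhesion protein that guides neuronal wiring, measured 2849, 2789 and 2776 normalized counts in Olaparib replicates 1 to 3 and 2370.3, 2528 and 2341 in DMSO replicates 1 to 3. The lowest Olaparib sample was well above the highest DMSO sample. Its levels were 2805 ± 38.9 after Olaparib and 2413 ± 101 after DMSO (mean ± SD over n = 3 samples), with a log2 fold change of 0.22 (SE 0.04, edgeR adjusted p = 0.000754), the smallest adjusted p of all very long genes. TENM3 passed the threshold whichever 1 of the 6 samples was left out. Coordinates here and for the other genes are GRCh38 in GENCODE v44.

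NTM (chromosome 11, 131370478 to 132336822), neurotrimin, an immunoglobulin-type adhesion protein anchored to the cell surface, measured 803, 843 and 816 normalized counts in Olaparib replicates 1 to 3 and 720.4, 694 and 708 in DMSO replicates 1 to 3. The groups were separated by more than the range within either. Levels were 821 ± 20.6 after Olaparib and 708 ± 13.1 after DMSO (mean ± SD over n = 3 samples), with a log2 fold change of 0.21 (SE 0.048, edgeR adjusted p = 0.00682). Without DMSO replicate 2, which is the lowest DMSO sample, the adjusted p was 0.0565.

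The other 54 adhesion genes did not pass. Of the 23 averaging 100 counts or more, 12 had a log2 fold change above 0, with a median of 0.029 and a range of -0.12 to 0.47. SEMA3A, a secreted guidance cue, CDH13, a cadherin without a cytoplasmic domain, and TENM4, a teneurin like TENM3, were expressed at 29.2, 18.3 and 17.1 TPM with log2 fold changes of -0.062, 0.032 and -0.071. SEMA3A and TENM4 were named after their values were seen. TENM3 and TENM4 had 95% intervals of 0.14 to 0.30 and -0.15 to 0.0056, which do not overlap. The difference between these genes was not itself tested.

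Vesicle, membrane and ciliary traffic genes included 3 that rose of 15 measured, with 0 lower (background 3.05% higher and 1.32% lower, or 3.8% and 1.62% at an average of 100 counts or more, which 14 of the 15 reached). LRBA (chromosome 4, 150264435 to 151015727), a beige-family protein that keeps cargo such as CTLA4 from lysosomal degradation, measured 2831, 2576 and 2523 normalized counts in Olaparib replicates 1 to 3 and 2287, 2349.5 and 2182 in DMSO replicates 1 to 3. Olaparib replicate 1 was the highest, and all 3 exceeded the DMSO samples. Its levels were 2643 ± 165 after Olaparib and 2273 ± 84.5 after DMSO (mean ± SD over n = 3 samples), with a log2 fold change of 0.22 (SE 0.044, edgeR adjusted p = 0.00206). LRBA, like TENM3, passed whichever 1 sample was left out. MAB21L2, a gene lying within LRBA on the opposite strand and sharing 7.11% of its exonic bases, had 0 counts.

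EXOC6B (chromosome 2, 72175984 to 72826041), a subunit of the exocyst that tethers secretory vesicles, measured 1197, 1155 and 1143 normalized counts in Olaparib replicates 1 to 3 and 923, 1062 and 1053 in DMSO replicates 1 to 3. DMSO replicate 1 was low against the other two DMSO samples, and the groups did not overlap. Levels were 1165 ± 28.5 after Olaparib and 1013 ± 77.7 after DMSO (mean ± SD over n = 3 samples), with a log2 fold change of 0.20 (SE 0.05, edgeR adjusted p = 0.0158). Without DMSO replicate 1 its log2 fold change was 0.14 and its adjusted p 0.203.

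VPS13B (chromosome 8, 99013266 to 99877580), a bridge-like lipid transfer protein at the Golgi, measured 677, 681 and 737 normalized counts in Olaparib replicates 1 to 3 and 598, 654 and 589 in DMSO replicates 1 to 3. Olaparib replicate 3 was the highest sample, and DMSO replicate 2 came closest to the Olaparib range. Levels were 698 ± 33.3 after Olaparib and 614 ± 35.3 after DMSO (mean ± SD over n = 3 samples), with a log2 fold change of 0.19 (SE 0.053, edgeR adjusted p = 0.0425). The call was lost without DMSO replicate 1 (adjusted p 0.219), DMSO replicate 3 (0.242), Olaparib replicate 2 (0.0623) or Olaparib replicate 3 (0.283). The remaining 12 traffic genes did not pass, EXOC4 among them.

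Polarity, junction and scaffold genes included 2 that rose of 24 measured, with 0 lower (background 3.05% and 1.32%). DLGAP1 (chromosome 18, 3496032 to 4455307), a scaffold of the postsynaptic density, measured 823, 829.8 and 793 normalized counts in Olaparib replicates 1 to 3 and 708, 711 and 723 in DMSO replicates 1 to 3. Both groups were tight and apart. Levels were 815 ± 19.4 after Olaparib and 714 ± 8.18 after DMSO (mean ± SD over n = 3 samples), with a log2 fold change of 0.19 (SE 0.048, edgeR adjusted p = 0.0171). Antisense transcripts lie in this gene: DLGAP1-AS2, a nested antisense RNA, was called lower, and an antisense transcript sharing 0.246% of its exonic bases had a mean count of 267. The call of DLGAP1 was lost without DMSO replicate 1 (adjusted p 0.1065), DMSO replicate 2 (0.0826), DMSO replicate 3 (0.0555) or Olaparib replicate 2 (0.0559).

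ANK3 (chromosome 10, 60026298 to 60733490), ankyrin-G, which ties channels and adhesion proteins to the spectrin skeleton, measured 2767, 2612 and 2671 normalized counts in Olaparib replicates 1 to 3 and 2429, 2484 and 2339 in DMSO replicates 1 to 3. The groups did not overlap, with DMSO replicate 2 nearest to the Olaparib range. Levels were 2684 ± 78.1 after Olaparib and 2417 ± 73.3 after DMSO (mean ± SD over n = 3 samples), with a log2 fold change of 0.15 (SE 0.04, edgeR adjusted p = 0.0263), the smallest change of the 12. Its canonical transcript covers 364 kb, so its span over 500 kb rests on other transcripts. The call was lost without DMSO replicate 2 (adjusted p 0.0552), DMSO replicate 3 (0.193), Olaparib replicate 1 (0.0885) or Olaparib replicate 3 (0.0803).

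Of the 16 scaffold genes averaging 100 counts or more, 11 had a log2 fold change above 0, with a median of 0.092. The largest estimate was that of AKAP6, an anchor of protein kinase A at the nuclear envelope, at 174, 165 and 163 normalized counts in Olaparib replicates 1 to 3 and 119, 145 and 139 in DMSO replicates 1 to 3. All Olaparib samples were above all DMSO samples, with a log2 fold change of 0.31 (95% interval 0.11 to 0.52, edgeR adjusted p = 0.106). PARD3, at 62.6 TPM the most abundant of the list, had a log2 fold change of -0.02 (95% interval -0.084 to 0.043).

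**Figure D4:**
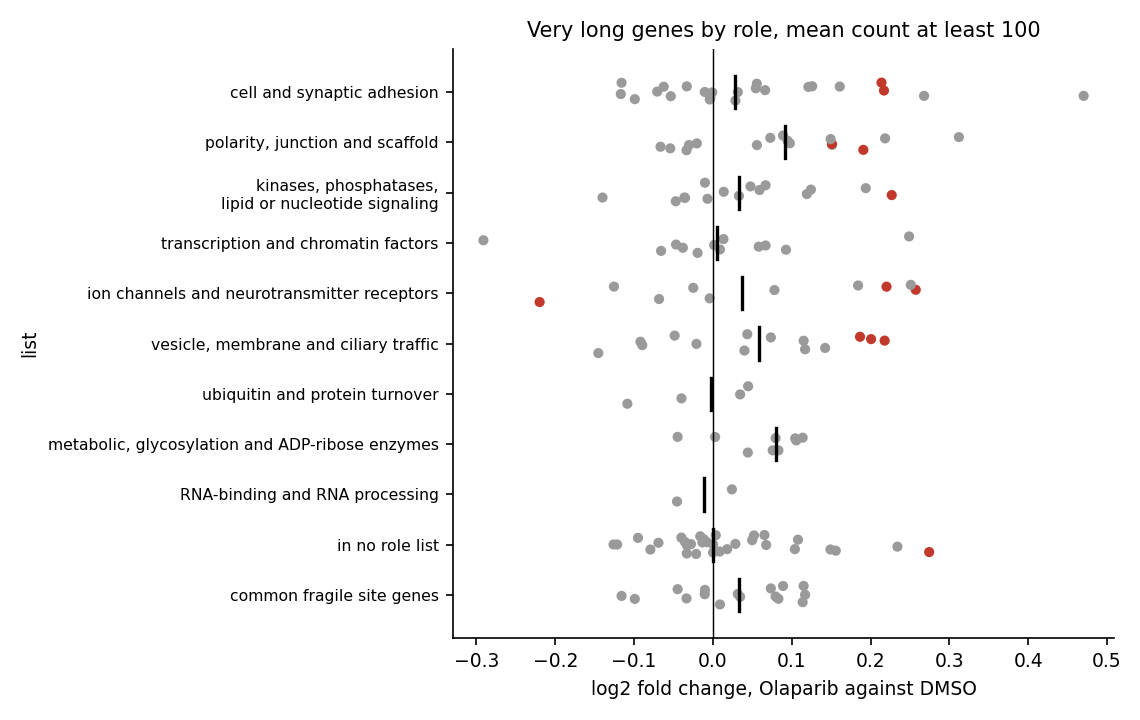
Log2 fold change, Olaparib against DMSO, of the very long genes averaging 100 counts or more, by role list; each point is 1 gene, red for an adjusted p under 0.05, and black bars are list medians. List medians lie between -0.011 and 0.092, and the red points are spread over 6 of the rows.

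Ion channel and neurotransmitter genes were the 1 list with edgeR calls in both directions, 2 higher and 1 lower of 26 measured (background 3.05% and 1.32%). DESeq2 and limma voom called 0 of the 26. KCNMA1 (chromosome 10, 76869601 to 77638369), the pore subunit of the large-conductance calcium-activated potassium channel, measured 368, 370.3 and 338 normalized counts in Olaparib replicates 1 to 3 and 286, 319 and 295 in DMSO replicates 1 to 3. The groups were separate, with DMSO replicate 2 nearest to the Olaparib range. Levels were 359 ± 18.1 after Olaparib and 300 ± 16.7 after DMSO (mean ± SD over n = 3 samples), with a log2 fold change of 0.26 (SE 0.07, edgeR adjusted p = 0.0322). At 0.814 TPM it was the least abundant called gene per exonic length. Left out in turn, DMSO replicate 1 (adjusted p 0.1445), DMSO replicate 3 (0.149), Olaparib replicate 1 (0.0913) and Olaparib replicate 2 (0.132) each ended its call.

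RYR2 (chromosome 1, 237042184 to 237833988), the cardiac ryanodine receptor that releases calcium from the endoplasmic reticulum, measured 590.1, 563 and 522 normalized counts in Olaparib replicates 1 to 3 and 510.2, 491 and 438 in DMSO replicates 1 to 3. Olaparib replicate 3 exceeded DMSO replicate 1 by little, and the groups just separated. Levels were 558 ± 34.3 after Olaparib and 479.8 ± 37.5 after DMSO (mean ± SD over n = 3 samples), with a log2 fold change of 0.22 (SE 0.061, edgeR adjusted p = 0.0352). RYR2 shares no exonic base with another annotated gene, which of the 12 called genes holds also for EXOC6B. Its call ended without DMSO replicate 2 (adjusted p 0.0859), DMSO replicate 3 (0.297), Olaparib replicate 1 (0.144) or Olaparib replicate 2 (0.11).

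SYT1 (chromosome 12, 78863993 to 79452008), synaptotagmin-1, is not a channel but the calcium sensor of vesicle release, and it was the 1 very long gene called lower. It measured 441, 381 and 432 normalized counts in Olaparib replicates 1 to 3 and 494, 496 and 472 in DMSO replicates 1 to 3. Olaparib replicate 2 was the lowest sample, and each Olaparib sample was below each DMSO sample. Levels were 418 ± 32.8 after Olaparib and 487 ± 13.2 after DMSO (mean ± SD over n = 3 samples), with a log2 fold change of -0.22 (SE 0.062, edgeR adjusted p = 0.0391). The call was lost without 5 of the 6 samples in turn, with adjusted p from 0.0589 to 0.247, and remained without Olaparib replicate 1. Its promoter, like those of TENM3 and LRBA, holds 1 GC box.

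Kinase, phosphatase and signaling genes included 1 that rose of 28 measured, with 0 lower (background 3.05% and 1.32%). PTPRM (chromosome 18, 7566782 to 8406861), a receptor tyrosine phosphatase that binds its own kind between cells, measured 745, 725 and 671 normalized counts in Olaparib replicates 1 to 3 and 561, 608 and 657 in DMSO replicates 1 to 3. Olaparib replicate 3 was close to DMSO replicate 3, and the groups just separated. Levels were 714 ± 38.3 after Olaparib and 609 ± 47.7 after DMSO (mean ± SD over n = 3 samples), with a log2 fold change of 0.23 (SE 0.056, edgeR adjusted p = 0.0145). Its relatives PTPRK and PTPRG had log2 fold changes of 0.12 and -0.01 (edgeR adjusted p = 0.0806 and 0.953). PTPRM lost its call without DMSO replicate 1 (adjusted p 0.1901), DMSO replicate 2 (0.0751), Olaparib replicate 1 (0.0683) or Olaparib replicate 2 (0.0631). The median of the 15 list members averaging 100 counts or more was 0.033.

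TSHZ2 (chromosome 20, 52972358 to 53495330), a zinc finger transcription factor, was called although none of the role lists held it. It measured 317, 312 and 334 normalized counts in Olaparib replicates 1 to 3 and 273, 265 and 259 in DMSO replicates 1 to 3. The groups were tight and far apart. Levels were 321 ± 11.6 after Olaparib and 265 ± 7.08 after DMSO (mean ± SD over n = 3 samples), with a log2 fold change of 0.27 (SE 0.072, edgeR adjusted p = 0.0248), the largest estimate among the called genes. The call was lost without DMSO replicate 2 (adjusted p 0.101), DMSO replicate 3 (0.131) or Olaparib replicate 3 (0.139).

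Other lists held 0 called genes, where the background share called was 4.36% and that at an unadjusted p under 0.05 was 10.6% higher and 7.39% lower. The list of transcription and chromatin factors did not include TSHZ2, which was called higher. Of the 21 very long genes on it, edgeR, DESeq2 and limma voom called 0, with 1 higher and 1 lower at an unadjusted p under 0.05. The largest estimate was that of ZBTB20, a zinc finger repressor, which measured 102, 117 and 109 normalized counts in Olaparib replicates 1 to 3 and 140.1, 126 and 137 in DMSO replicates 1 to 3. All 3 Olaparib samples were below all 3 DMSO samples, with a log2 fold change of -0.29 and an edgeR adjusted p of 0.181. Exons of other genes cover 44.9% of the exonic bases of ZBTB20, and their part in its counts was not tested. FOXP1, a forkhead factor, stood at 0.009 with a 95% interval of -0.091 to 0.11.

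Of 14 metabolic, glycosylation and ADP-ribose enzymes, the 3 tests called 0, with 2 higher at an unadjusted p under 0.05, and 8 of the 9 averaging 100 counts or more had a log2 fold change above 0. Of 8 ubiquitin and protein turnover genes and 4 RNA-binding genes, the 3 tests called 0, and 0 had an unadjusted p under 0.05. The largest estimates among those averaging 100 counts or more were -0.11 at MARCHF1, a ubiquitin ligase, and -0.045 at CELF2. Genes in no role list numbered 67, with TSHZ2 the 1 called.

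Genes at common fragile sites were a further list that overlaps the role lists, with 33 measured and 16 averaging 100 counts or more. edgeR called 0 of the 33, limma voom 0 and DESeq2 1, EXOC4 (background 4.36%, 4.13% and 4.09%). At an unadjusted p under 0.05 edgeR had 1 higher and 1 lower (background 10.6% and 7.39%). With so few genes, these calls are not read as a result about fragile sites. Among the 16, log2 fold changes ran from -0.12 to 0.12, with 10 above 0. Their median was 0.033, close to the 0.029 of all very long genes averaging 100 counts or more.

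FHIT, a nucleotide hydrolase at the fragile site FRA3B, measured 281, 266 and 305 normalized counts in Olaparib replicates 1 to 3 and 240.5, 244 and 301 in DMSO replicates 1 to 3. DMSO replicate 3 reached the Olaparib range, with a log2 fold change of 0.11 (95% interval -0.051 to 0.28). The estimate was 0.23 without DMSO replicate 3 and 0.059 without Olaparib replicate 3. WWOX, an oxidoreductase at FRA16D, measured 805, 759 and 739 normalized counts in Olaparib replicates 1 to 3 and 682, 760.0 and 729.9 in DMSO replicates 1 to 3. The groups overlapped, with a log2 fold change of 0.083 (95% interval -0.018 to 0.18). With 1 sample left out at a time, the estimate of WWOX ran from 0.047 to 0.12.

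PARD3B and DPYD had log2 fold changes of 0.089 and 0.08, with all Olaparib samples above all DMSO samples and edgeR adjusted p of 0.416 and 0.588. NBEA and SNX29 stood at 0.12 and 0.074, IMMP2L and CDH13 at 0.035 and 0.032, and PTPRG and LPP at -0.01 and -0.033. The most negative estimates were -0.12 at ASTN2 and -0.099 at CNTN4, with groups that overlapped in both.

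Change was also set against span, over autosomal protein-coding genes averaging 100 counts or more and without a test. The share called higher by edgeR was 3.31% under 10 kb, 3.28% at 10 to 30 kb, 3.60% at 30 to 100 kb, 5.48% at 100 to 200 kb, 6.37% at 200 to 500 kb and 9.48% (11 of 116) at 500 to 1000 kb. The share called lower was 2.65% under 10 kb and between 0.862% and 1.59% in the next 5 classes. Medians of the log2 fold change were 0.01 under 10 kb, 0.000039 at 30 to 100 kb, 0.028 at 200 to 500 kb and 0.029 at 500 to 1000 kb. The step between the classes at 200 to 500 kb and at 500 to 1000 kb was smaller by the other tests, with shares called higher of 5.07% and 5.17% by DESeq2 and 6.51% and 6.90% by limma voom. At 100 to 200 kb they were 4.61% and 5.19% by these tests, and under 10 kb 2.71% and 3.15%. The share called higher therefore already stood above the shortest classes at 100 to 200 kb and was not a feature that began at 500 kb.

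**Figure D5:**
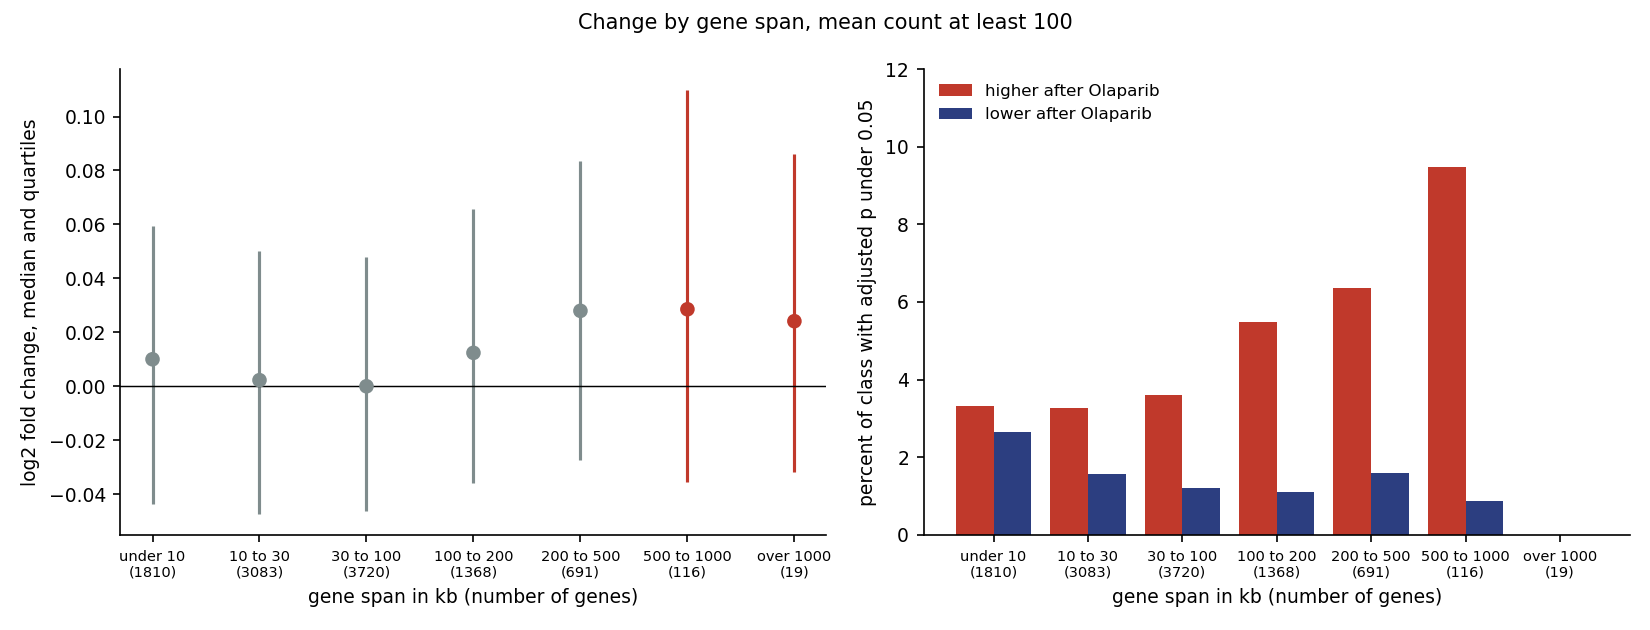
Left, median and quartiles of the log2 fold change by gene span; right, percent of each class with an adjusted p under 0.05, higher (red) or lower (blue) after Olaparib, for autosomal protein-coding genes averaging 100 counts or more (number of genes under each class). The 2 classes over 500 kb are in red on the left. The share called higher by edgeR runs from 3.28% to 9.48% below 1000 kb and is 0% above it, where the class holds only 19 genes.

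Above 1000 kb, edgeR and limma voom called 0 of 55 genes at any level (background 4.36% and 4.13%). DESeq2 called 0 of the 25 to which it gave an adjusted p (background 4.09%). By edgeR, 3 of the 55 were higher and 0 lower at an unadjusted p under 0.05 (background 10.6% and 7.39%). The median mean count of the 55 was 31.2, so the 0 called is not read as a drop above 1000 kb. Only 19 of the 55 averaged 100 counts or more, with a median log2 fold change of 0.024. Over all 55 the median was 0.089, which was 0.051 without Olaparib replicate 1 and was 0.11 without Olaparib replicate 3. Across single genes, span and log2 fold change were barely related: Spearman's rho was 0.047 over the 135 very long genes and 0.047 over 10807 autosomal protein-coding genes, all measured in the same 6 libraries.

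The limits of the definition hold genes with very different values. Just over 500 kb lie ANO5 at 500909 bp, with a log2 fold change of -0.08, and SPOCK3 at 501413 bp, with 0.38 at 66 counts in total. Just under it lie DIAPH3 at 498346 bp, with 0.084, and ITPR2 at 497843 bp, with 0.43. At the count limit, MYT1L, TAFA1, FSTL5, RALYL and GRM5 entered with 12 counts in total, and NKAIN3 and RGS6 stayed out with 10.

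Annotated span can exceed the transcript a cell makes. By the canonical transcript, 202 of the 263 stayed over 500 kb and 61 did not, 5 of them under 100 kb. Of the 202, 11 were called (5.45%, background 4.36%), ANK3 being the 1 that dropped out. The median log2 fold change of the 202 was 0.051. Other genes lying wholly within the span of a very long gene offered a further view of the same regions. Of 129 tested, in 94 hosts, 0 were higher and 1, DLGAP1-AS2, was lower by edgeR. The median log2 fold change of the 129 was -0.11, against -0.0042 over all genes tested. It was 0.017 over the 11 protein-coding genes among them and -0.13 over the 63 long noncoding RNA genes. The cause was not tested. Over all genes tested, 2.15% were called higher and 1.21% lower.

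Factors that act on elongation and early termination, such as CDK9, CDK12, the SPT5 protein SUPT5H, the FACT subunits SSRP1 and SUPT16H and the histone methyltransferase SETD2, were listed separately because transcription of long genes depends on them. All 50 were measured, and edgeR, DESeq2 and limma voom called 0 of them, with 4 higher and 2 lower at an unadjusted p under 0.05. Among other protein-coding genes 4.36% were called, and 10.6% were higher and 7.39% lower at an unadjusted p under 0.05. The median log2 fold change of the 50 was -0.007. SSRP1 had the smallest edgeR adjusted p, 0.187, at a log2 fold change of -0.072. CDK12, whose loss is known to lower long repair genes, stood at 0.039 (edgeR adjusted p = 0.721).

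The calls differed in how far they rested on 1 sample. Without DMSO replicate 1, 2 or 3, edgeR called 6, 5 and 5 very long genes, and without Olaparib replicate 1, 2 or 3 it called 9, 6 and 11. The share of other protein-coding genes called moved too, to 2.81%, 2.42% and 2.34% without DMSO replicate 1, 2 or 3 and to 5.42%, 3.25% and 2.63% without Olaparib replicate 1, 2 or 3. The very long genes' shares in these fits were 2.28%, 1.9% and 1.9%, then 3.42%, 2.28% and 4.18%, above the background only without Olaparib replicate 3. TENM3 and LRBA were called in all 6 of these fits. ANK3, EXOC6B, LRBA, NTM and TENM3 were called with each other test, scaling and filter, including DESeq2, which called 6 in all, the sixth being EXOC4. TSHZ2, KCNMA1, PTPRM, RYR2, DLGAP1, VPS13B and SYT1 were not called by DESeq2, with adjusted p from 0.0601 to 0.157. Of these, KCNMA1, RYR2, SYT1 and VPS13B were not called by limma voom either, with adjusted p from 0.0505 to 0.0717.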

How the data were processed

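Poly(A) RNA of 3 Olaparib and 3 DMSO samples of UWB1.289 was sequenced from stranded libraries. The deposited values are raw read counts per gene, which the authors made by trimming with Trimmomatic, aligning to GRCh38 (Ensembl 96) with STAR, marking with Picard and counting with featureCounts, and the strand setting of the counting is not given in the sources used here. Samples were grouped by the labels. Genes with more than 10 counts in total were tested, Olaparib against DMSO, with edgeR 4.0.16 (TMM scaling, quasi-likelihood test, treatment as the 1 term) in R 4.3.3, adjusted by the Benjamini-Hochberg method over 21729 genes. A gene was called at an adjusted p under 0.05. Normalized counts are counts scaled by TMM library size to the mean library, and the script was tested on simulated data.

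Span, exonic length, overlap and canonical transcript came from GENCODE release 44 by Ensembl gene identifier (52181 of 63677 identifiers matched). The table holds no lengths or coordinates, so TPM was computed per GENCODE exonic length and not per length in the table. Alternatives were DESeq2 1.42.0, limma voom (limma 3.58.1), other scalings, filters and span limits, a replicate block and each sample left out. The members and the lists were chosen with earlier results of these data known. Genes were named by rule: called genes, the 10 highest by TPM, the 5 longest, fragile site genes averaging 100 counts or more, the member of each list with the largest change at that level, and genes next to a limit. Genes outside the rule were named after their values were seen. Intervals and SEs cover 3 samples per group in 1 cell line.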

Additional observations from a re-analysis of the deposited data

How the results depend on the processing

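The direction of the 12 called genes held in all alternatives run, and their number did not. DESeq2's Wald test called 6 very long genes, 6 higher and 0 lower, and 0 when a fold of 1.2 was asked. limma voom called 8, with 0 lower. Of other protein-coding genes DESeq2 called 4.09% and limma voom 4.13%, above the 3.77% and 3.04% of very long genes. These shares were not matched for level, and DESeq2 gave 104 of the 263 no adjusted p. Without a filter on low counts 16 were called (6.08%, background 5.24%), 2 past the fold threshold. The span limit moved the count with the number of genes: 40 of 664 over 300 kb, and 4 of 100 over 800 kb, where the median log2 fold change was 0.078. Of 119 genes whose exons overlap no other gene, 2 were called. These counts are read beside the 4.36% called among protein-coding genes outside the 263. With each sample left out in turn, the calls ranged from 5 to 11, those higher from 5 to 11, those lower from 0 to 1, those past the fold threshold from 1 to 5, and the median over 1000 kb from 0.051 to 0.11. By the canonical transcript, an alternative chosen after seeing the data, 11 of 202 were called (5.45%, background 4.36%). Span from the exons of the deposited table was not run, since the table lists none.

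A replicate block raised the calls to 19 (7.22%, background 8.15%), with 18 higher and 2 past the fold threshold, adding CADPS2, EXOC4, NAV3, PTPRD, PTPRK, RIMS2 and UTRN, and all genes called from 730 to 1322. The samples share only a number: over 11997 genes the deviations of same-numbered samples correlated at -0.20, 0.26 and -0.32, and Olaparib replicate 3 correlated best with DMSO replicate 1 (0.48).

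Reversals concerned genes near 0 or near the count limit. ADK was -0.00037 with upper quartile scaling and -0.0102 to 0.0288 with samples left out, and FSTL5 was -0.19 with limma voom and -0.37 to 0.98. With samples left out, CELF2 ran from -0.096 to 0.0056, MACROD2 from -0.082 to 0.0043, FOXP1 from -0.0258 to 0.0602, PTPRG from -0.068 to 0.035, ANO5 from -0.21 to 0.0498, CNTNAP2 from -0.12 to 0.049 and GRM5 from -0.096 to 1.15. The cause was not tested. Depth limits the 128 genes under a mean count of 100, whose median SE was 0.36.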
